A study of Mus musculus with 11 samples.

Results

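Msantd4, listed in the count table under its older name 8430410K20Rik, is 1 of 14602 genes counted in RPE/choroid of mice 3 months after a nanosecond laser treatment of the eye. It was selected on its measured values: of all genes it had the smallest p in the comparison of laser treated with naïve control libraries. The size of that difference, the spread of its replicates and the gap between the groups are therefore descriptions here and carry no p-value.

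The experiment used C57BL/6J mice, an inbred strain with no engineered allele. Laser treated mice received the 2RT nanosecond laser, whose short pulses ablate RPE cells, at 9 months of age, and their tissue was collected at 12 months (n = 5 libraries). Naïve control mice received no laser and were of the same age at collection (n = 6 libraries). In both groups the neural retina was removed, RNA was taken from the whole RPE/choroid, and a SmartSeq v4 step amplified the cDNA before NexteraXT libraries were made, so each value averages over all cells of the tissue, lasered and not. The labels do not state that each library came from a separate animal, and p-values measure the spread between these libraries.

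The protein encoded by Msantd4 is named for a Myb/SANT-like domain, a small helical fold related to the DNA-binding repeats of the transcription factor MYB and to the SANT domains of chromatin proteins. Proteins with such domains include transcription factors, telomere binding proteins and subunits of complexes that move nucleosomes or modify histones. The role of Msantd4 itself in RPE or choroid has been little studied.

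Msantd4 lies on chromosome 9 of GRCm38 from 4376562 to 4386870, on the plus strand. GENCODE M21 annotates 3 transcripts of it, and 0 other genes overlap it on either strand. The longest spliced transcript has 2800 bases in 3 exons. Exon 1, from 4376562 to 4376623, has 62 bases and is wholly untranslated. Exon 2, from 4383537 to 4384142, has 606 bases, of which 462 are coding. Exon 3, from 4384739 to 4386870, has 2132 bases, of which 573 are coding and the other 1559 hold the stop codon and the 3′ untranslated region. The reading frame has 345 codons. A second coding transcript leaves out exon 1 and begins at 4383535, and the third is a non-coding transcript with a retained intron at the start of the gene.

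The junction between both coding exons is shown because in every library the assembly described further on has a separate fragment on either side of it and none that spans it. In this stretch the last 40 bases of exon 2, from chr9:4384103-4384142, are in lower case and the first 40 bases of exon 3, from chr9:4384739-4384778, are in capitals, read 5′ to 3′ on the plus strand from the GENCODE M21 transcript.
Msantd4 exon 2 to exon 3: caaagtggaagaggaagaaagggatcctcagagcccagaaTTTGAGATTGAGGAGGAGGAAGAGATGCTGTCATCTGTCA

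Msantd4 was lower in every laser treated library than in any naïve control library. The naïve control libraries held between 1837 and 2379 reads on the gene, with a median of 2072. Laser treated libraries 1 to 5 held 924, 1507, 1055, 1018 and 1101 reads. The groups were thus apart in raw reads, while their library totals, between 25700881 and 38755994 counts, overlapped.

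After scaling to counts per 1000000 with edgeR's TMM factors (CPM), the naïve control libraries had 55.8 CPM at the lowest, 65.6 at the median and 74.5 at the highest. Laser treated libraries 1, 3 and 4 had 29.9, 30.1 and 29.2 CPM. Laser treated library 5 had 33.1 CPM and laser treated library 2 had 41.0 CPM, the highest of its group. The lowest naïve control library, number 4, was still 1.36 times the highest laser treated library.

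The mean of the naïve control group was 65.3 ± 6.12 CPM (SD, n = 6), and that of the laser treated group was 32.6 ± 4.88 CPM (SD, n = 5). On the log2 scale the laser treated group was lower, at a fold change of -0.999 with a standard error (SE) of 0.14. In a bulk sample like this, fewer cells of a type that expresses the gene and less of its RNA per cell cannot be told apart.

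**Figure D1:**
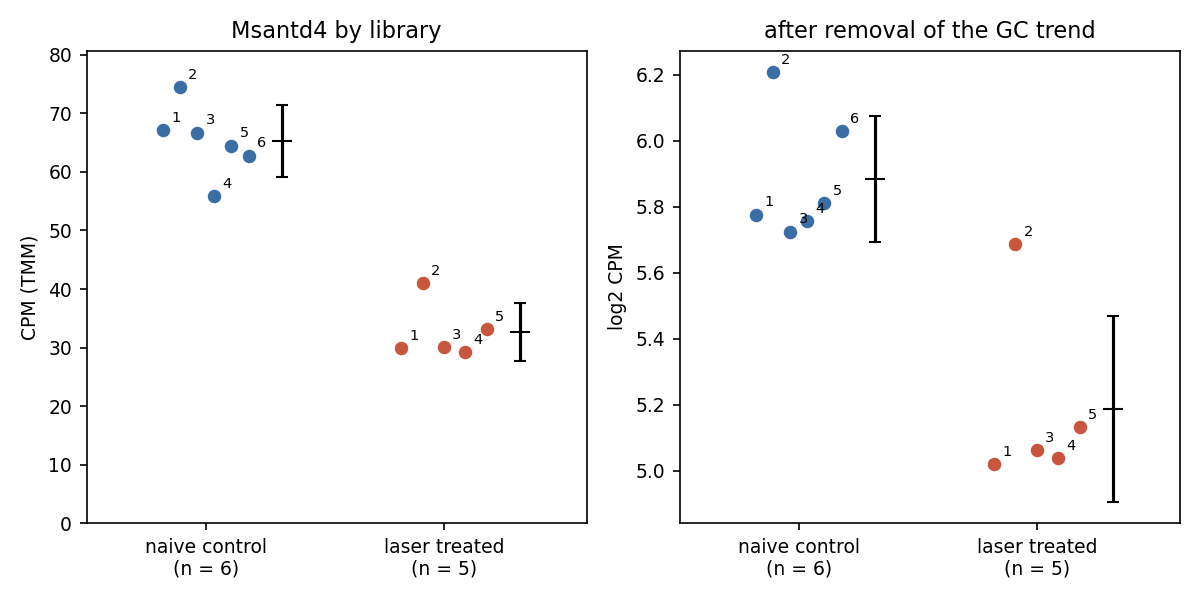
Msantd4 in each library as CPM (left) and as log2 CPM after removal of the trend on transcript GC content (right). Points are libraries with their replicate number, and black bars are the group mean and SD. On the left the naïve control libraries lie between 55.8 and 74.5 CPM and the laser treated libraries between 29.2 and 41.0 CPM, and on the right laser treated library 2 sits just under the naïve control libraries.

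The difference was not among the greatest of the table, but the replicates lay close together. A larger absolute log2 fold change was seen in 1038 genes, or 7.11% of those tested, and 666 genes had a more negative one. The pooled SD of log2 CPM within groups was 0.17 for Msantd4 and 0.49 for the median gene, and 2.81% of genes had a smaller SD. A small p depends on a small spread as well as on the difference, so selection by p favours such an SD.

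Of the 14602 genes, 0 passed an adjusted p of 0.05 in edgeR's quasi-likelihood test (0.0%), whereas 2325 (15.9%) had an unadjusted p under 0.05 and 1122 (7.68%) had one and were lower after laser. DESeq2 called 502 genes at an adjusted p under 0.05. The CPM ranges were apart in 330 genes (2.26%), and in 126 (0.863%) every laser treated library was lower, Msantd4 among them. Of these 126, 2 genes had a wider gap than Msantd4 between the lowest naïve control and the highest laser treated library. The gap comes from the values used to select Msantd4, so nothing is read from this rank.

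Set against other genes, Msantd4 ranked lower in the laser treated libraries. With counts divided by transcript length and scaled to a fixed sum (TPM from counts), the naïve control level was 52.9 ± 5.67 (SD, n = 6) and the laser treated level 27.5 ± 3.65 (SD, n = 5). In the naïve control libraries 79.0% to 83.4% of the 14252 genes with a known length had a lower level. In the laser treated libraries this share was 66.5% to 73.3%.

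The GC content of a gene's transcript moved with the difference between the groups. The Msantd4 transcript has 42.8% G and C, below the median of 49.8%, and 14.8% of genes have less. With the genes cut into 5 equal parts by GC content, the median log2 fold change was -0.32 in the part with the least, up to 44.0%, and 0.29 in the part with the most, against -0.02 over all genes. Among the 1144 genes within 1 percentage point of its GC content, the median was -0.28.

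Once the trend of each library's counts on GC content was removed, the log2 fold change of Msantd4 was -0.68 with a standard error of 0.17, a fold of 1.61 in place of 2.00. The naïve control libraries then had 5.72 to 6.21 log2 CPM. Laser treated libraries 1, 3, 4 and 5 had 5.02, 5.06, 5.04 and 5.13 log2 CPM, and laser treated library 2 had 5.69. The groups still did not overlap, but the gap between laser treated library 2 and the lowest naïve control library was 0.039 log2 CPM. With the trend removed, 104 genes (0.712%) had groups that did not overlap.

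The first line of each file of assembled transcripts carries a label, R1 or R2, whose meaning is not given in the sources used here. Among the libraries labelled R1, Msantd4 had 66.7 to 74.5 CPM in the 3 naïve control libraries and 29.9 and 41.0 CPM in the 2 laser treated ones. Among those labelled R2, it had 55.8 to 64.5 CPM in the 3 naïve control libraries and 29.2 to 33.1 CPM in the 3 laser treated ones. The difference in mean log2 CPM was -0.99 within each label. After removal of the GC trend it was -0.55 within R1 and -0.79 within R2.

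The assembled fragments show where along the gene the reads lay. Each library's assembly holds exactly 2 fragments over Msantd4, both with 1 exon and on the plus strand, the one on exon 2 and the other on exon 3. No fragment lay on exon 1 or on the retained intron, and 0 of the 22 fragments were matched to a reference transcript by the assembler. The assemblies as a whole hold only fragments of 1 exon, 57494 to 82506 in a library, of which 1.44% to 1.82% were matched.

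Fragments followed the annotated exon limits closely in both groups. On exon 2 they began between 2 bases before and 1 base after the annotated start and ended 0 to 18 bases before its end. In 6 libraries, 5 naïve control and 1 laser treated, the exon 2 fragment spanned 4383535 to 4384142, the exact first exon of the coding transcript that lacks exon 1. On exon 3 the fragments began within 3 bases of the annotated start and ended 10 to 39 bases before the annotated end.

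**Figure D2:**
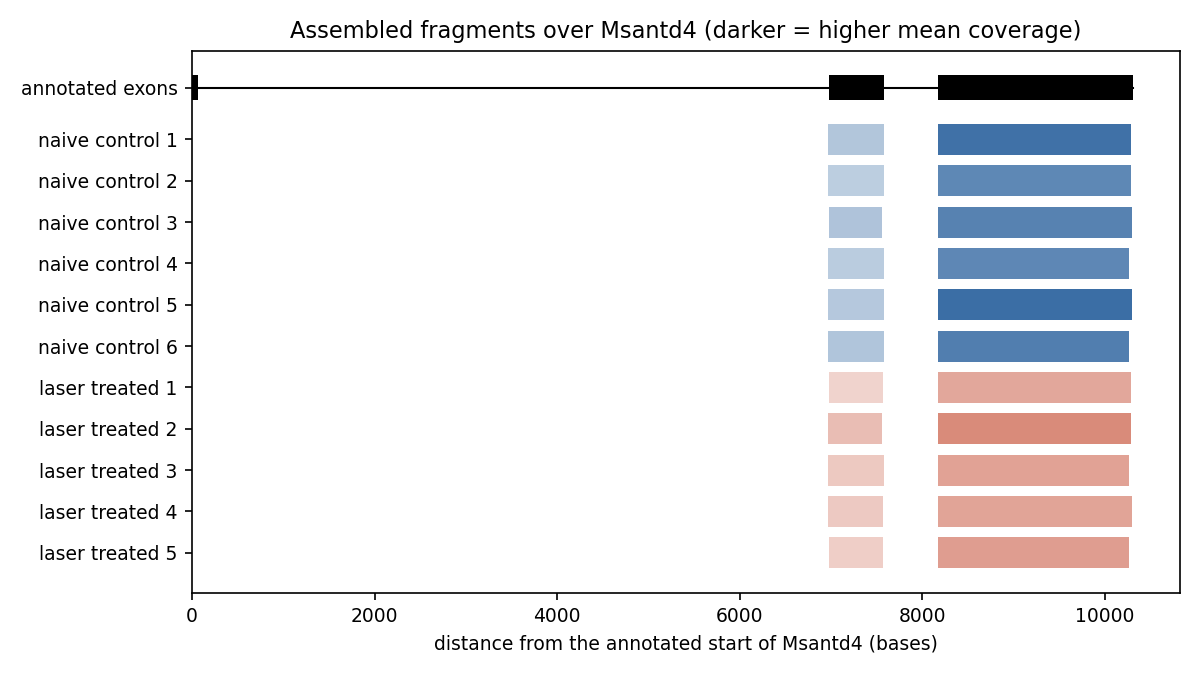
Map of the assembled fragments over Msantd4 in the 11 libraries, drawn to scale by distance in bases from the annotated gene start, with the annotated exons in black on top. Colour depth follows mean read coverage, which ranged from 10.3 to 39.8 on exon 2 and from 59.5 to 152.1 on exon 3, and no library has a fragment on exon 1.

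The lower level in laser treated libraries was seen on both exons, with clear separation on exon 3 and overlap on exon 2. The exon 3 fragment had 26.0 TPM at the lowest, 30.5 at the median and 35.4 at the highest naïve control library. Laser treated libraries 1 to 5 had 14.7, 20.2, 15.3, 16.6 and 16.4 TPM, all below the naïve control range. On exon 2 the naïve control libraries had 6.23 to 9.36 TPM with a median of 7.73.

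The exon 2 fragment of laser treated library 2 had 7.75 TPM, inside the naïve control range. Laser treated libraries 1, 3, 4 and 5 had 2.53, 5.15, 5.79 and 3.77 TPM there, all below it. The number of bases assembled over the gene per counted read was 140.2 to 144.2 in all libraries, so that both files describe the same reads and the fragments are no second measurement of the level.

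Summed over both fragments, the naïve control libraries had 38.4 ± 3.50 TPM (SD, n = 6) and the laser treated libraries 21.6 ± 4.01 TPM (SD, n = 5). Each fragment's TPM is scaled by its own length, so this sum is not a TPM of the whole transcript. The difference of mean log2(TPM + 1), taken on this sum, was -0.81. TPM are relative to all fragments a library's assembly holds, and the difference on this scale was smaller than that from the counts.

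How the coverage was shared between the exons is a measure that did not enter the selection of the gene. Of the assembled bases of Msantd4, exon 3 held 93.2 ± 0.911% (SD, n = 6) in the naïve control libraries and 92.3 ± 2.15% (SD, n = 5) after laser. It makes up 77.9% of the joint length of exons 2 and 3, so its coverage per base was higher, by 3.97 ± 0.567 times (SD, n = 6) without laser and 3.72 ± 1.34 times (SD, n = 5) with it.

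Laser treated libraries 1 and 5 had 95.3% and 93.9% on exon 3, and laser treated libraries 2, 3 and 4 had 90.3%, 91.1% and 91.0%, below all naïve control libraries, whose lowest share was 91.9%. Laser treated libraries thus had a wider spread than naïve control libraries. The groups differed by -0.82 percentage points, and a difference in the share was not detected (two-sided exact permutation test over the 462 possible assignments, p = 0.405, where the smallest p possible is 0.0022). Single libraries moved this difference: it was -1.57 percentage points without laser treated library 1 (exact p = 0.0667), and -0.32, -0.51 and -0.50 without laser treated libraries 2, 3 and 4 (exact p = 0.752, 0.648 and 0.652).

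**Figure D3:**
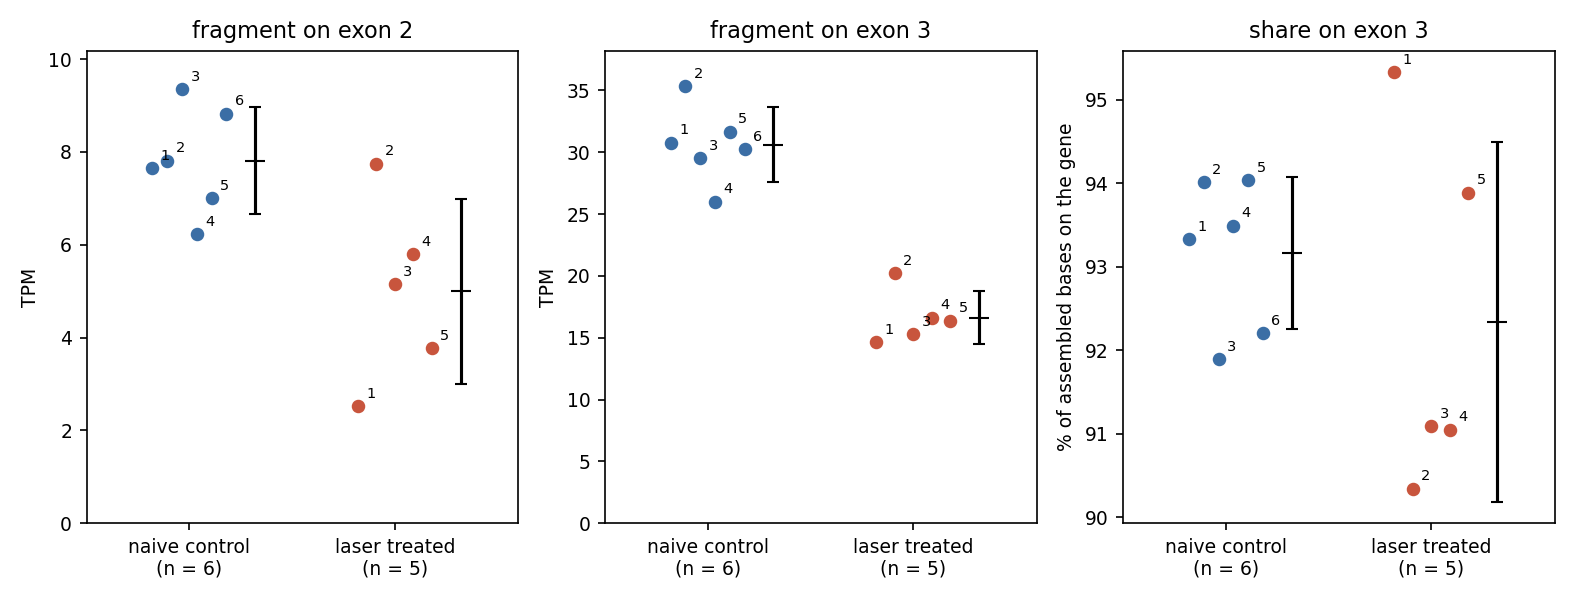
TPM of the fragment on exon 2, TPM of the fragment on exon 3 and share of the gene's assembled bases on exon 3, by library; points carry the replicate number and black bars are mean and SD. The groups separate on exon 3 and overlap on exon 2, where laser treated library 2 has 7.75 TPM, and the axis of the share does not start at 0.

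Genes beside Msantd4 on chromosome 9 were compared in the same fit. Within 1 Mb of the gene the table holds 8 other genes, of which 5 were lower and 3 higher after laser, with a median log2 fold change of -0.27. An unadjusted p under 0.05 was found for 2 of the 8, both lower and both among the 3 nearest, beside 15.9% of all genes. In edgeR's quasi-likelihood test 0 passed an adjusted p of 0.05, and in 0 of the 8 did the groups separate, beside 2.26% of all genes.

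Kbtbd3, which encodes a kelch repeat protein with a BTB domain, ends 44.8 kb before Msantd4. The naïve control libraries had 19.7 to 55.2 CPM and the laser treated libraries 22.1 to 29.4 CPM, so that the lowest value of all was a naïve control library, number 6. The log2 fold change was -0.65 (edgeR, SE 0.24, adjusted p = 0.22). Aasdhppt, which encodes the enzyme that attaches the phosphopantetheine group to fatty acid synthase and other carrier proteins, lies 67.1 kb before Msantd4.

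Aasdhppt had 69.6 to 116.4 CPM in naïve control and 58.4 to 90.2 CPM in laser treated libraries, or -0.40 as a log2 fold change (edgeR, SE 0.16, adjusted p = 0.247). Both genes have a lower GC content than Msantd4, 38.4% for Kbtbd3 and 37.4% for Aasdhppt. With the GC trend removed, their log2 fold changes were -0.26 and -0.03, and 0 of the 8 neighbours had an unadjusted p under 0.05.

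Gria4, a subunit of AMPA glutamate receptors, lies on the minus strand, 31.0 kb after Msantd4. It had 1.57 to 8.98 CPM in naïve control and 0 to 5.49 CPM in laser treated libraries. The log2 fold change was -1.46 (edgeR, SE 1.00, adjusted p = 0.525), and a difference was not detected. Gucy1a2, a subunit of the nitric oxide receptor guanylate cyclase, lies 481.8 kb before Msantd4 with a log2 fold change of -1.77 and an SE of 1.08. Its naïve control libraries ranged from 0.060 to 8.18 CPM and overlapped the laser treated libraries, at 0.11 to 3.16 CPM.

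The more distant neighbours showed no difference beyond their errors. For Cwf19l2, whose protein belongs to a family of splicing related factors, the log2 fold change was -0.13 (SE 0.30), and for Alkbh8, a tRNA modifying enzyme, it was 0.01 (SE 0.25). Casp1 and Casp12, inflammatory caspases, had mean levels of 1.28 to 2.86 CPM in the groups, and their log2 fold changes of 0.39 and 0.34 had standard errors of 1.15 and 1.51.

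**Figure D4:**
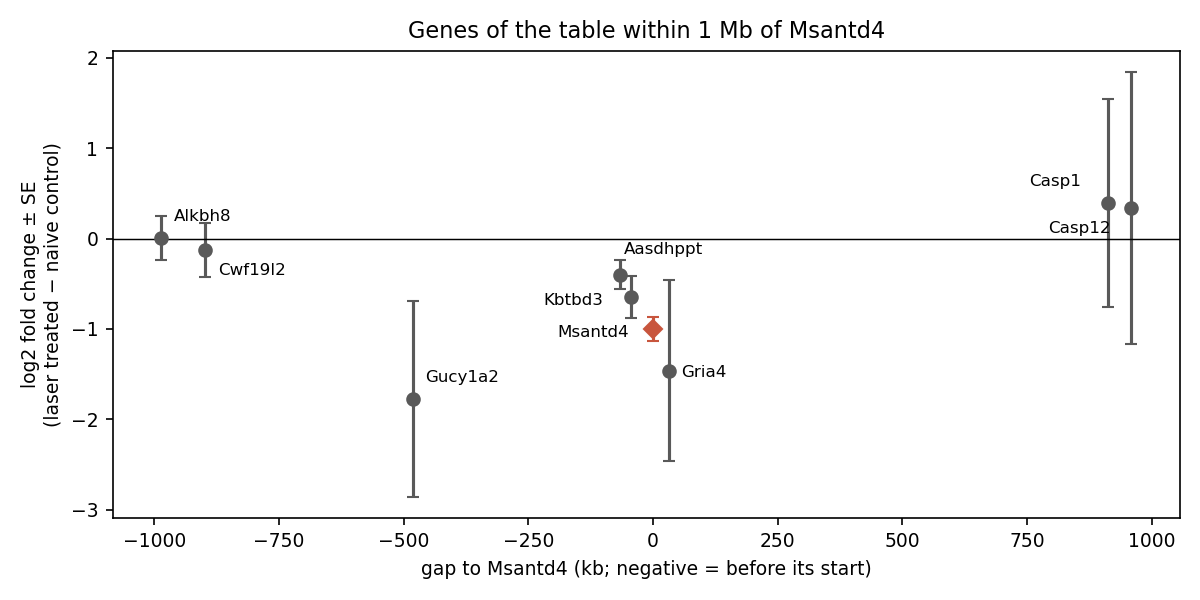
Log2 fold change, laser treated over naïve control, with its standard error (SE) for Msantd4 (diamond) and the 8 other genes of the table within 1 Mb (circles), by the gap between the genes in kb. Msantd4, at -0.999, has the shortest error bar, and the bars of Alkbh8, Cwf19l2, Casp1 and Casp12 cross 0.

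Other genes of proteins with Myb/SANT or related domains did not move in one direction. Of 49 such genes, 42 were in the table, 23 of them lower and 19 higher after laser, with a median log2 fold change of -0.05 beside -0.02 over all genes. With an unadjusted p under 0.05, 4 were lower and 2 higher, together 6 of 42, beside 15.9% of all genes, and 0 passed an adjusted p of 0.05 in edgeR's test. In 1 of the 42 the groups did not overlap, beside 2.26% of all genes.

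Msantd3, the member of the same small family that was in the table (listed as 5730528L13Rik), did not differ beyond its error. It had 7.98 to 12.2 CPM in naïve control and 9.26 to 12.6 CPM in laser treated libraries. The log2 fold change was 0.07 (edgeR, SE 0.22, adjusted p = 0.923). Msantd1 and Msantd2 were not among the genes analysed here.

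The 5 genes of the list with the greatest absolute log2 fold change were Smarca1, Rcor2, Trerf1, Terf1 and Naif1. Smarca1, an ATPase of the ISWI nucleosome remodelling complexes, had -1.55 with a standard error of 0.79, and Trerf1, a zinc finger regulator of transcription, -0.88 with a standard error of 0.68. Terf1, a telomere binding protein, had -0.80 with a standard error of 0.44. Rcor2, a corepressor that works with the histone demethylase LSD1, had 1.08 with a standard error of 1.01, and Naif1, a nuclear protein linked to apoptosis, 0.77 with a standard error of 0.39. None of these 5 had an unadjusted p under 0.05.

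The 4 lower genes were the ISWI ATPase Smarca5 (log2 fold change -0.73), the splicing factor Cdc5l (-0.46), and Dnajc2 and Dnajc1 (-0.42 and -0.32), co-chaperones with SANT domains. Mta1, a subunit of the NuRD histone deacetylase complex, was among the higher genes (0.66). These 5 were named after their values were seen. With the GC trend removed, 0 of the 42 had an unadjusted p under 0.05.

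The genes most like Msantd4 over the 11 libraries were ranked by Pearson's r of log2 CPM among the other 14601 genes. The 10 highest were Ggnbp2 (r = 0.94), Snhg14 (0.92), Pno1 (0.92), Zfp26 (0.92), Rmdn1 (0.91), Gm17491 (0.90), Phf14 (0.90), Rnf2 (0.90), Auts2 (0.89) and Yipf6 (0.88). Since Msantd4 separates the groups, these values carry the difference between the groups as well as any likeness within them. All 10 were lower after laser, with log2 fold changes from -2.34 to -0.47, 0 had an adjusted p under 0.05 in edgeR's test, and in 7 of the 10 the groups did not overlap, beside 2.26% of all genes. The ranking used the same values, so nothing is read from this count.

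Ggnbp2, a zinc finger protein that binds gametogenetin, had 108.4 to 158.0 CPM in naïve control and 74.6 to 103.3 CPM in laser treated libraries, where number 2 was again the highest. The log2 fold change was -0.56 (edgeR, SE 0.12, adjusted p = 0.172). Rnf2, the catalytic subunit of Polycomb repressive complex 1, had -0.73 (standard error 0.16), and Auts2, a partner of that complex in neurons, -0.94 (standard error 0.29). Pno1, a factor needed to make the small ribosomal subunit, had -0.50 (standard error 0.12).

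Snhg14, a long non-coding RNA listed as C230091D08Rik, had 13.6 to 16.4 CPM in naïve control and 4.45 to 10.4 CPM in laser treated libraries. Of the 10 genes, 9 had a GC content under 46%, and Auts2 had 54.4%. With the GC trend removed, the 10 log2 fold changes ranged from -2.04 to -0.13. Within the 6 naïve control libraries, r with Msantd4 ranged from -0.35 for Auts2 to 0.91 for Zfp26 and Phf14. Each of these r rests on only 6 libraries, too few to tell whether the genes share a pattern within the group.

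The 5 genes with the lowest r were Surf2 (-0.94), LOC100861793 (-0.92), Pamr1 (-0.92), Lgi4 (-0.90) and Slc52a2 (-0.90), all higher after laser. Pamr1, which encodes a secreted protein with a serine protease-like domain, averaged 3.92 ± 1.40 CPM (SD, n = 6) without and 22.6 ± 11.0 CPM (SD, n = 5) with laser. Lgi4, a secreted protein that Schwann cells need for myelination, averaged 3.79 ± 1.55 CPM (SD, n = 6) without and 9.65 ± 2.39 CPM (SD, n = 5) with laser. Slc52a2, listed as Gpr172b, is a riboflavin transporter, with a log2 fold change of 0.71 and an SE of 0.15.

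The 2 libraries farthest from the median of Msantd4, laser treated libraries 4 and 1, were also left out. For the 10 highest, r was then 0.83 to 0.93, and for the 5 lowest -0.96 to -0.86. Libraries of both groups were still present, so these values carry the difference between the groups and do not show likeness within them. Spearman's rho over all 11 libraries was 0.76 to 0.95 for the 10 highest and -0.86 to -0.71 for the 5 lowest. All of these points share their libraries, and with them depth and base composition.

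A different set of genes was found when each library's deviation from its group mean was compared. The 10 with the highest r of these deviations were Neo1, Acap1, Gm19420, Pde2a, Cdk17, Srms, Rps19bp1, Lpar2, Trim23 and Zfp811, with r from 0.83 to 0.91. In all 10 the laser treated library with the highest level was number 2, as for Msantd4. This library deviated most in Msantd4 and the ranking used these deviations, so nothing is read from this count. Some of the 10 genes had few reads: Acap1, Gm19420 and Srms had group means from 0.349 to 0.928 CPM. Lpar2 averaged 1.42 CPM in the naïve control libraries. The groups overlapped in all 10 genes, and the log2 fold changes ranged from -0.84 to 0.61. Neo1, the receptor neogenin, averaged 23.5 ± 5.44 CPM (SD, n = 6) without and 24.0 ± 9.33 CPM (SD, n = 5) with laser. Without the 2 libraries that deviated most in Msantd4, laser treated library 2 and naïve control library 4, r of the deviations was 0.64 to 0.82 for these 10 genes.

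The tissue label was checked against marker genes. Rpe65, the isomerase of the visual cycle, had a mean of 12600 CPM in naïve control and 11057 in laser treated samples, and all 12 RPE markers were in the table, although Best1 had only 1.20 and 0.706 CPM. The 9 neural retina markers summed to 5714 to 20524 CPM in naïve control and 3984 to 18484 in laser treated libraries, so retinal RNA was present in both groups and the ranges overlapped. Of the Schwann cell markers, Mbp, a myelin protein, had an unadjusted p under 0.05 and a log2 fold change of 2.22, and the 4 markers measured summed to 294.8 to 533.7 CPM in naïve control and 395.6 to 1104 in laser treated libraries.

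Of the 12 RPE markers 5 were higher and 7 lower after laser (median log2 fold change -0.04), and 1 had an unadjusted p under 0.05, Mitf (-0.49), beside 15.9% of all genes. Of the 6 melanocyte markers 4 were higher and 2 lower, with a median of 0.16, and 1 had an unadjusted p under 0.05, Sox10 (0.62). All 4 blood markers were lower, with a median of -0.91, and 1 had an unadjusted p under 0.05, Hbb-bs (-1.13). The summed melanocyte markers had 1167 to 2438 CPM in naïve control and 1229 to 2503 in laser treated libraries, and the blood markers 45.7 to 299.2 and 36.5 to 151.4. None of the 8 endothelial, 6 fibroblast, 6 macrophage, 9 neural retina and 5 skeletal muscle markers had an unadjusted p under 0.05. The share over all genes was the same 15.9%. Of the endothelial markers 7 were higher and 1 lower (median 0.37), and of the skeletal muscle markers 5 were higher and 0 lower (0.47). Of the neural retina markers 2 were higher and 7 lower (-0.24). Fibroblast and macrophage markers each had 4 higher and 2 lower (0.39 and 0.15). In edgeR's test 0 markers of any list passed an adjusted p of 0.05. The summed levels of all lists overlapped between the groups. The part of cell composition in the difference of Msantd4 was not tested.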

How the data were processed

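For 11 libraries of RPE/choroidal RNA the authors deposited the raw counts of reads per gene, and for each library the assembled transcripts with coverage, FPKM and TPM. The submitters' processing notes name bcl2fastq 2.18.0.12, Trim Galore, STAR 2.5.3a, featureCounts 1.5.3, StringTie 1.3.3 and edgeR 3.22.3 and the builds GRCm38 and mm10, with no settings. The fold change, abundance, F, p-value and FDR columns that the authors deposited from their own comparison were not used. Reads do not distinguish copied molecules after pre-amplification.

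Groups came from the sample labels. Counts were normalized by TMM, and all 14602 genes passed filterByExpr. Groups were compared by edgeR 4.0.16 quasi-likelihood fits with robust estimation in R 4.3.3, with Benjamini-Hochberg adjustment over all genes. The standard errors given with edgeR log2 fold changes were derived from the test. Each is the absolute log2 fold change divided by the square root of its F value. Log2 CPM used a prior count of 2. Alternatives used DESeq2 1.42.0, limma 3.58.1 and loess trends of span 0.3. GENCODE M21 gave positions: an Ensembl identifier matched 13045 genes, an older symbol 1197 and the symbol itself 10, while 350 found no match and have no length, GC content or position here. The fits were tested on simulated counts. Other steps used Python 3.11.15 with pandas 2.3.3 and numpy 2.4.6.

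Total counts were 25700881 to 38755994 per library, and the standard errors give the precision at this depth. No libraries of a group were copies of each other: their counts differed by a chi-square of 63.2 to 268.3 per degree of freedom. Genes named are Msantd4, all genes of the table within 1 Mb, Msantd3 and the 5 other Myb/SANT genes with the greatest absolute log2 fold change, and the genes with the 10 highest and 5 lowest correlations and the 10 highest correlations of deviations; others are named as chosen after their values were seen, or are markers. The gene and the lists were chosen with earlier results of these data known. Some genes of the lists are counted in them but are not reported here by name.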

Additional observations from a re-analysis of the deposited data

Results flagged for a closer look

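A single library stood far apart in 4 of 30 sets of values, each of them Msantd4, a neighbouring gene, Msantd3 or Ggnbp2 within either the naïve control or the laser treated group. About 1 in 20 would by chance. After removal of the GC trend, laser treated library 2 had 5.69 log2 CPM of Msantd4, against 5.02 to 5.13 in the rest of its group. The same library had 5.49 CPM of Gria4, the nearest gene after Msantd4, where the next highest laser treated library had 1.54. Casp12 reached 4.22 CPM in naïve control library 1, with 1.57 in the next, and 6.55 CPM in laser treated library 5, with 1.07 in the next.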

How the results depend on the processing

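Removal of the GC trend moved the log2 fold change of Msantd4 from -0.999 to -0.68, and together with the replicate number as a block to -0.67. The other values lay between -1.09 (without laser treated library 2) and -0.96 (without naïve control library 2), and the block alone gave -1.03. Its sign was the same in all alternatives run. Msantd4 was selected on this difference and its groups do not overlap, so nothing is read from the constant sign. Whether the numbers pair the libraries could not be decided. Correlations of the deviations of same-numbered libraries were -0.009 to 0.28, and 2 of 5 were best with their own number, too few to tell. The count of genes with an adjusted p under 0.05 was 0 with edgeR, 502 with DESeq2, 2 with a minimum of 10 counts in every library, 1 with limma voom and quality weights, and 0 to 4 with a library left out, the 4 without laser treated library 2. Of the 8 neighbours, 2 had an unadjusted p under 0.05; this was 4 with voom, 1 with the replicate block, 0 with the GC trend removed, with or without the block, and 1 to 2 with a library left out, the 1 without naïve control library 2. Of the 42 Myb/SANT genes 6 did, and 10 with voom, 0 with the GC trend removed and 1 with both the block and that removal. The TPM difference was -0.91 to -0.74 and the exon 3 share differed by -1.57 to -0.32 percentage points with a library left out. No fragment over Msantd4 was matched to the reference, so the alternatives restricted to matched fragments gave no value, and all fragments had a coverage of at least 1. The counts are reads after amplification, so the number of molecules behind them is unknown.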

Other observations

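The 2 libraries that carry the lowest and highest exon 3 share, laser treated libraries 2 and 1, also held the highest and lowest exon 2 level of their group, 7.75 and 2.53 TPM, while on exon 3 they had 20.2 and 14.7 TPM. The share is computed from the coverage of both exons, so by arithmetic a higher exon 2 level lowers it. In the naïve control group the exon 2 level ranged from 6.23 to 9.36 TPM.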
